A study of Mus musculus with 11 samples.

Results

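The X-linked miRNA genes Mir465, Mir465b-1, Mir465b-2, Mir465c-1, Mir465c-2, Mir470, Mir463, Mir471 and Mir871 were followed through reprogramming of mouse fibroblasts. They were chosen by name, and all 9 were found among the 3859 small RNA genes of the deposited table. The choice was made with their values over the 11 libraries known, so their levels and trends below are a description. The 11 libraries were 1 each of an established line of induced pluripotent stem cells (iPSC), an embryonic stem cell line (ESC), days 1 to 8 after doxycycline, and uninduced embryonic fibroblasts (MEF). All 11 were labelled Mbd3f/-, which denotes that Mbd3 has a floxed copy and a deleted copy. Its protein belongs to NuRD, a complex that remodels chromatin. No library here has the wild-type genotype by its label. The column of the ESC library carries the name V6.5, a line that the series describes as wild type or Mbd3f/-, and its genotype is therefore unclear. The MEF were secondary cells that carry a doxycycline-inducible cassette for Oct4, Klf4, Sox2 and Myc, per the series' description. Cells of days 3 to 8, iPSC and ESC grew on irradiated human foreskin fibroblasts, and MEF and days 1 and 2 are not listed as grown on them. Inhibitors of MEK and GSK3 were added during the course, and the sources differ on when. Feeders, medium and later days cannot be told apart by this design. Each stage had 1 library, so no spread between cultures is known.

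A miRNA is cut from a hairpin transcript into a short mature strand, and bases 2 to 8 of that strand, the seed, pair with target mRNAs. The genes described here belong to a fast-evolving cluster of the X chromosome between Slitrk2 and Fmr1 that is known for its expression in testis, in germ cells and in the supporting Sertoli cells. miR-470 is known in mouse embryonic stem cells as a miRNA that targets the coding sequences of the pluripotency factors Nanog and Oct4 during differentiation. Mature strands of the same seed are thought to share many targets.

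The genes lie on the minus strand of chromosome X within 46.5 kb, from 66792595 to 66839125 (GRCm38), and each is annotated as a miRNA gene of its own. In the order of transcription they are Mir465, Mir465b-2, Mir465c-2, Mir465b-1 and Mir465c-1, spaced by 3166 to 3236 bases, then Mir470, Mir871, Mir463 and Mir471. The Mir471 end of the block lies 131 kb from Slitrk2 and the Mir465 end 1839 kb from Fmr1. RefSeq (GRCm38.p6) held hairpins for 9 of 9, of which 7 were distinct, because Mir465b-1 equals Mir465b-2 and Mir465c-1 equals Mir465c-2. The hairpins of the 3 kinds of Mir465 are shown 5′ to 3′. Capitals mark letters that differ from Mir465b-1 in a global alignment or have no partner in it, and missing bases are not marked. Only a difference within a mature strand can tell reads of that strand apart.
Mir465b-1: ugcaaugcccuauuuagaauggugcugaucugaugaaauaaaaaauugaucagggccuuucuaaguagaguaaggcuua
Mir465c-1: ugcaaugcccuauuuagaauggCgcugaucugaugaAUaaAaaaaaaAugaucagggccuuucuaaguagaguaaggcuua
Mir465: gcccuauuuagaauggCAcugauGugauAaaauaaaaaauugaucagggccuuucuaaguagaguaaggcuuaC

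The mature strands of the most abundant genes and of the Mir465 copies are shown with the seed in capitals.
mmu-miR-470-5p: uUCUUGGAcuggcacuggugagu
mmu-miR-470-3p: aACCAGUAccuuucugagaaga
mmu-miR-871-5p: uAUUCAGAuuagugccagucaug
mmu-miR-871-3p: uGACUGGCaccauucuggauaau
mmu-miR-465a-5p: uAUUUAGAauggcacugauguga
mmu-miR-465b-5p: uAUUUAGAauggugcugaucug
mmu-miR-465c-5p: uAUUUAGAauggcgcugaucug
mmu-miR-465b-3p: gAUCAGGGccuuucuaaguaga
The 3p strands of miR-465a, miR-465b and miR-465c were 1 sequence, so a read of that strand cannot be assigned to any of the 5 copies. The 5p strands share their seed and differ at few bases, counted from 1 at the 5′ end. From miR-465b-5p to miR-465c-5p the change is U13C, and from miR-465c-5p to miR-465a-5p the changes are G14A and C20G. The 14 mature names of the 9 genes held 10 seeds. The seed of miR-871-5p was shared by miR-743a-5p of the same cluster, and that of the miR-465 5p strands by miR-465d-5p. The other 8 seeds occurred in none of the other mature strands, out of 1679 names in the RefSeq table. The seeds of miR-463-5p and miR-463-3p are ACCUAAU and GAUAGAC, and those of miR-471-5p and miR-471-3p are ACGUAGU and GAAAGGU. Hairpin identity ran from 84.2% to 100% over the 10 pairs of Mir465 copies, against 52.6% to 67.9% over the other 26 pairs of the 9 genes.

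The deposited values are FPKM, which are scaled to transcript length and to the mapped fragments of the library. Low values were whole multiples of a smallest step, from which reads were recovered. In MEF 1 read was worth 81.6 FPKM for Mir471, of 67 bases, and 48.0 for Mir465c-1, of 81 bases. The scaling thus raises shorter hairpins by more than their length, which limits comparisons of FPKM between genes, but not those of 1 gene between libraries. Of 19 values of these genes between 0.5 and 5.5 reads, 19 lay within 0.05 of a whole read. The step had been set on low values of the whole table, these among them. In units of 1e6 mapped reads, the implied depth was 11.6 in MEF and 12.5 to 21.9 in the other libraries. On days 7 and 8 the genes of the table shorter than 130 nt, with a known position, took 22.4% and 27.3% of the mapped reads. In the other 9 libraries they took 44.5% to 59.0%. Longer genes and those without a position were left out of this share.

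By FPKM, Mir470 was the most abundant of the 9 genes in every library after MEF. Its FPKM was 419 in MEF, 1389 at day 1, 1677 at day 2, 2024 at day 3, 3906 at day 4, 17967 at day 5, 63254 at day 6, 115730 at day 7 and 170927 at day 8, and at 4871230 FPKM in iPSC and 251903 FPKM in ESC. Its level was higher on each day than on the day before, and the iPSC library stood far above every other. The value in MEF corresponded to 7 recovered reads and that in iPSC to 104732. In ESC Mir470 had 6489 recovered reads and Mir871 had 6591, so the first place of Mir470 there rests on the length scaling. Among miRNA genes above 0, ranked by FPKM, Mir470 was number 15 of 837 in iPSC, 90 of 816 in ESC, 82 of 780 on day 8 and 425 of 687 in MEF.

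Mir871, the nearest neighbour of Mir470, followed the same course at a similar level. Its FPKM was 944 in MEF, 928 at day 1, 1462 at day 2, 1582 at day 3, 3132 at day 4, 13442 at day 5, 55421 at day 6, 89667 at day 7 and 133407 at day 8, and at 3667170 FPKM in iPSC and 237606 FPKM in ESC. MEF and day 1 were its lowest libraries, at 17 and 18 reads. The FPKM ratio of Mir470 to Mir871 was 0.444 in MEF, where it rests on 7 and 17 reads. It lay between 1.06 and 1.5 in the other 10 libraries, lowest in ESC, where Mir871 had more recovered reads than Mir470. The pair made up 79.4% to 93.6% of the summed FPKM of the 9 genes in each library.

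**Figure D1:**
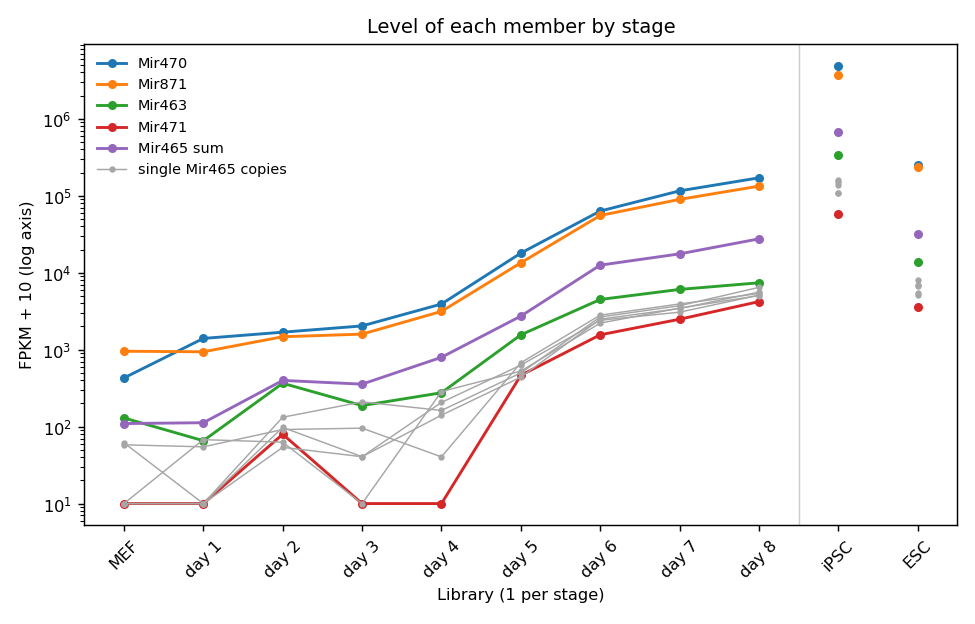
Level of each gene in each library, as FPKM + 10 on a log axis, with 1 library per stage and the sum of the 5 Mir465 copies as a line of its own. All curves climb from day 4 to day 8, those of the Mir465 copies, Mir463 and Mir471 are uneven before day 4, and the iPSC points stand above those of ESC and day 8.

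The 5 Mir465 copies were near the limit of detection in fibroblasts. Mir465, Mir465b-1 and Mir465c-1 were listed at 0 in MEF, and Mir465b-2 and Mir465c-2 were at 51.6 and 48.0 FPKM there, the worth of 1 read each. Because reads of these copies cannot be separated with certainty, their sum is the safer measure. The summed FPKM was 99.6 in MEF, 102 at day 1, 388 at day 2, 346 at day 3, 785 at day 4, 2719 at day 5, 12529 at day 6, 17564 at day 7 and 27511 at day 8, and 669317 FPKM in iPSC and 32043 FPKM in ESC. It corresponded to 2 reads in MEF, with a 95% Poisson interval of 0.242 to 7.22 reads that covers counting error only, and to 949 reads on day 8. From day 5 on, the highest copy was 1.27 to 1.55 times the lowest in each library, so the copies were listed at like levels. How reads of identical hairpins were shared is not given, so nothing is read from this likeness about single copies.

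Mir463 and Mir471 lie farthest along the block. For Mir463 the FPKM was 120 in MEF, 55.6 at day 1, 356 at day 2, 178 at day 3, 265 at day 4, 1548 at day 5, 4478 at day 6, 6053 at day 7 and 7383 at day 8, and at 334161 FPKM in iPSC and 13878 FPKM in ESC. Mir471, known from Sertoli cells of the testis, was listed at 0 in MEF and on days 1, 3 and 4, with 69.6 FPKM on day 2, the worth of 1 read. Its FPKM was then 454 at day 5, 1549 at day 6, 2474 at day 7 and 4202 at day 8, and at 57829 FPKM in iPSC and 3577 FPKM in ESC. Mir471 was the lowest of the 9 genes in iPSC, ESC and on days 6 to 8, and 3 reads of it would be 245 FPKM in MEF and 191 in iPSC.

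As deposited, each of the 9 genes was higher at every step from day 4 to day 8. On the log2(FPKM + 10) scale the median step was 2.10 from day 4 to day 5 and 2.04 from day 5 to day 6, while that of all 1419 transcripts tested was -0.19 and 0.14. The next steps had medians of 0.49 to day 7 and 0.57 to day 8, against -0.86 and 0.36 over all transcripts tested. The step to day 7 depended on the scaling: relative to the summed miRNA FPKM its median was 1.48, and with quantile normalization 1.39. The step to day 8 was then 0.32 and 0.20, with 9 of 9 and 8 of 9 higher. Up to day 4 the steps were uneven and rested on few reads in most of the genes. The median was 0.00 from MEF to day 1 with 2 of 9 higher, 2.43 to day 2 with 8 of 9 higher, -0.41 to day 3 with 4 of 9 higher and 0.95 to day 4 with 6 of 9 higher. The step to day 2 thus had the highest median of the 8 as deposited. The largest single step was that to day 5 in Mir470, Mir871, Mir463, Mir471 and Mir465c-2, that to day 6 in Mir465b-1, that to day 2 in Mir465b-2 and Mir465c-1, and that to day 4 in Mir465. The summed level of all 9 genes was 42.5-fold higher on day 8 than on day 4, and 5.11-fold higher on day 4 than in MEF.

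A slope per day over MEF and days 1 to 8 was fitted with limma to the 1419 transcripts whose mean reached 10 FPKM, a filter that all 9 genes passed. The slopes ran from 0.89 ± 0.12 log2 units per day for Mir463 to 1.27 ± 0.10 for Mir465b-1 (SE over 9 libraries), with 1.12 ± 0.10 for Mir470, 1.03 ± 0.11 for Mir871 and 1.21 ± 0.22 for Mir471. Their sizes and order depended on the FPKM added before the log. With 1 and 100 FPKM in place of 10, the slope was 1.67 and 0.82 for Mir465b-1 and 1.66 and 0.75 for Mir471. For Mir470 it was 1.12 and 1.10, the steepest of the 9 genes with 100 FPKM added. The count of rising slopes at a limma adjusted p below 0.05 was 9 of 9, where 12.5% of all transcripts tested rose and 10.6% fell. The genes were chosen on these values, so nothing is read from that count. Within days 3 to 8 alone, the slopes ran from 1.16 for Mir465c-1 to 1.98 for Mir471.

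The iPSC library held far more of every gene than the ESC library. Mir470 was 19.3-fold, Mir871 15.4-fold, Mir463 24.1-fold, Mir471 16.2-fold and the Mir465 sum 20.9-fold higher in iPSC than in ESC. In both lines Mir470, Mir871 and Mir463 were the 3 most abundant of the genes and Mir471 the least. On the log2(FPKM + 10) scale the difference ran from 3.95 for Mir871 to 4.59 for Mir463, with a median of 4.30, against 0.15 over all transcripts tested. At least 4-fold higher in iPSC were 9 of 9, where 10.9% of all transcripts tested were, and 7.12% were at least 4-fold lower. With 1 library of each line the difference has no replicate check. Scaling to the summed miRNA FPKM or quantile normalization left the median at 4.29 and 4.36.

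Most transcripts with a 4-fold excess in iPSC were scarce, so the same count was made, after these values had been seen, over the 377 transcripts with a mean of at least 10000 FPKM in the lines. In that set 23, or 6.10%, were at least 4-fold higher in iPSC. They comprised the 9 genes, 7 other miRNAs of the X cluster and 7 transcripts elsewhere, namely Mir184, Mir211, Mir344b, Mir34b, Mir34c, Mir351 and Gm22489. The filter itself favours transcripts that are high in iPSC. Each Mir465 copy and Mir471 were below 10000 FPKM in ESC and passed it only through iPSC. Nothing is therefore read from the part of the 9 genes in the 23. The 9 genes took 3.77% of the summed FPKM of all miRNA genes in iPSC, 0.214% in ESC, 0.232% on day 8 and 0.000640% in MEF.

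**Figure D2:**
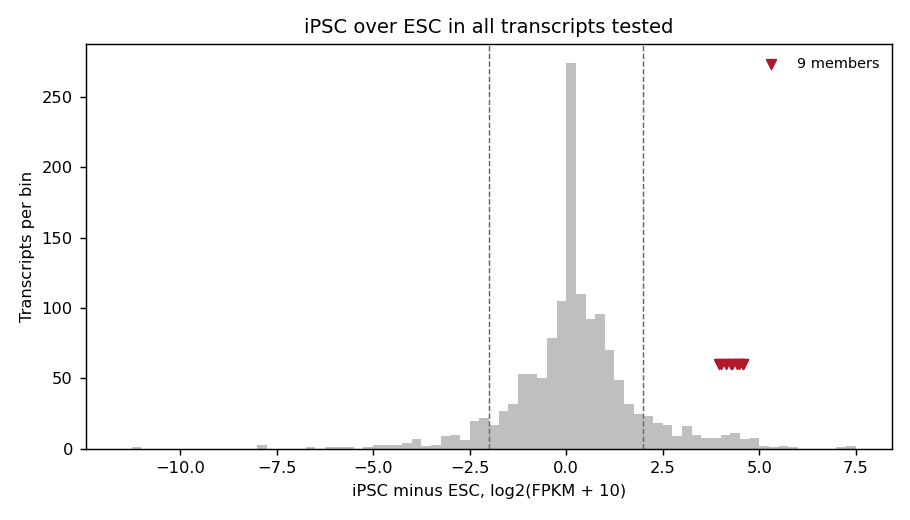
Histogram of the difference between iPSC and ESC on the log2(FPKM + 10) scale over all 1419 transcripts tested, with triangles at the 9 genes and dashed lines at a 4-fold difference. The triangles lie together between 3.95 and 4.59, beyond the upper line, while the histogram is centred near 0.15.

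Other miRNAs also differed between the lines. The 8 fibroblast miRNAs in the table, such as Mir21 and Mir199b, had a summed level of 10200727 FPKM in iPSC and 30441880 FPKM in ESC. At least 4-fold lower in iPSC were 5 of 8, where 7.12% of all transcripts tested were. The 12 pluripotency miRNAs, from clusters named for miR-290 and miR-302, summed to 21923202 FPKM in iPSC and 17966782 FPKM in ESC, with Mir295 listed at 0 in both. At least 4-fold higher in iPSC were 0 of 12 and at least 4-fold lower 1 of 12, where 10.9% and 7.12% of all transcripts tested were. The 5 blood cell miRNAs in the table summed to 777877 FPKM in iPSC and 291309 FPKM in ESC, and Mir223 was listed at 0 in both. The part of these differences in that of the 9 genes was not tested. In bulk RNA, more cells with a miRNA and more of it per cell cannot be told apart.

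Day 8 levels were less than 4-fold from those of ESC in 9 of 9 genes, as in most transcripts tested, and far below those of iPSC. As deposited, the ESC level was 1.47 times the day 8 level for Mir470, 1.78 times for Mir871, 1.88 times for Mir463, 0.851 times for Mir471 and 1.16 times for the Mir465 sum. Counting intervals of ESC and day 8 overlapped in 4 Mir465 copies and Mir471, and lay apart in Mir465, Mir470, Mir463 and Mir871. Such intervals narrow with more reads, were not computed for other transcripts, and take the reads of single Mir465 copies as listed. Nothing is therefore read from how many overlap. At least 4-fold higher in ESC than on day 8 were 0 of 9, where 13.7% of all transcripts tested, or 195 of 1419, were. At least 4-fold lower were 0 of 9, where 152 of the 1419 were. Nearness to ESC is therefore not particular to these genes. In iPSC 9 of 9 were at least 4-fold higher than on day 8, where 22.6% of all transcripts tested were, with Mir470 28.5-fold and Mir463 45.3-fold higher. Day 8 had a small share of its reads in the genes of the table shorter than 130 nt, at 27.3% against 51.2% in ESC. Scaling to the summed miRNA FPKM lowered the difference between ESC and day 8 in each gene: its median over the 9 genes was -0.41 on the log2 scale, against 0.35 as deposited, and -0.30 with quantile normalization. For Mir470 the difference was -0.21 after miRNA scaling, against 0.56 as deposited, and for Mir871 and Mir463 it was 0.07 and 0.14, against 0.83 and 0.91. The direction between ESC and day 8 therefore turned under miRNA scaling in Mir470 and 4 of the Mir465 copies, of which Mir465 did not turn with quantile normalization, while Mir871 and Mir463 stayed higher in ESC and Mir465b-1 and Mir471 lower.

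The day 8 level was also set against the mean of the lines on the log2 scale. The difference was -2.70 for Mir470, -2.81 for Mir871, -3.20 for Mir463, -1.77 for Mir471 and -2.41 for the Mir465 sum. At least 4-fold lower on day 8 were 8 of 9, where 17.0% of all transcripts tested were. This count rested on the iPSC library: with ESC alone it was 0 of 9. Mir465b-1 and Mir471 were then higher on day 8, by 0.03 and 0.23. With values scaled to the summed miRNA FPKM it was 2 of 9.

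Both pluripotent lines were above the fibroblasts. At least 4-fold higher in both lines than in MEF were 9 of 9, where 29.7% of all transcripts tested were, and 9 of 9 were at least 4-fold higher on day 8 than in MEF, where 37.7% were. The smaller of the 2 line differences from MEF was 9.20 for Mir470, 7.96 for Mir871 and 8.19 for the Mir465 sum. No fold is given for the 4 genes listed at 0 in MEF.

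As deposited, all 9 genes had the iPSC library highest. In 7 of them ESC came next and then day 8, and in Mir465b-1 and Mir471 day 8 came before ESC, with overlapping counting intervals. Days 7, 6 and 5 followed in this order in each gene. Intervals of the deposited values of day 7 and day 6 overlapped in 7 of 9, and those of day 6 and day 5 in 0 of 9. No intervals were computed for other transcripts, so nothing is read from these counts. The median step from day 6 to day 7 was 0.49 as deposited and 1.48 with miRNA scaling. The order of MEF and days 1 to 4 differed between genes.

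**Figure D3:**
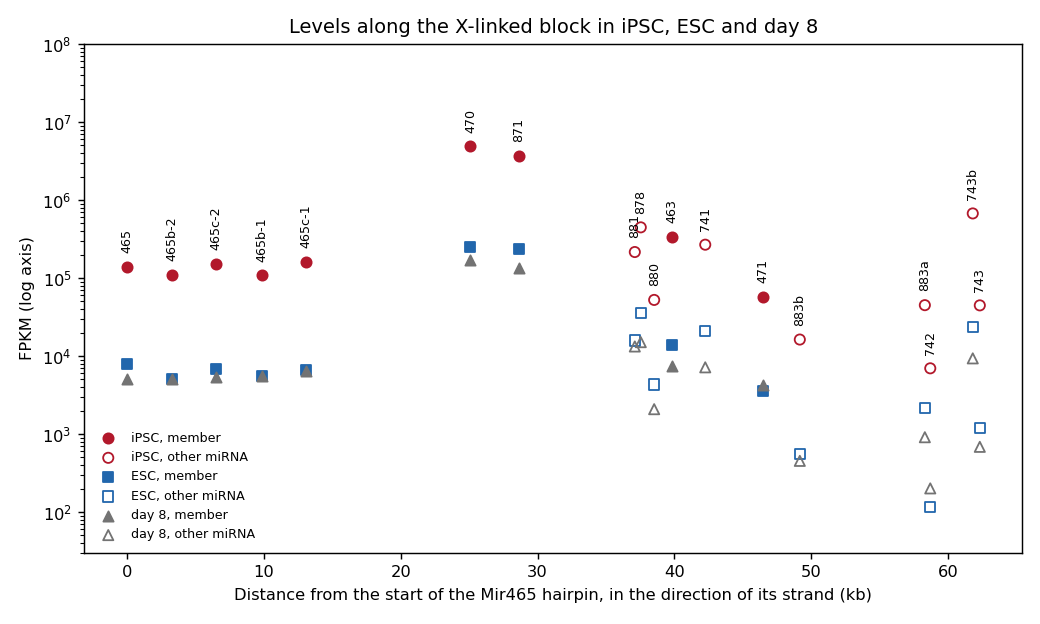
FPKM on a log axis of each miRNA of the block against its distance in kb from the start of the Mir465 hairpin, along the direction of transcription, in iPSC, ESC and on day 8. Filled symbols are the 9 genes and open symbols the other miRNAs, numbers are the gene names without Mir, and the iPSC symbol is the highest at every gene.

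Within 200 kb of the 9 genes the table held 9 other genes, all miRNAs of the same cluster, and 4 of them lie between Mir463 and Mir471 or between Mir463 and Mir871. Including Mir201 and Mir547, which lie 1149 kb away towards Fmr1, 11 of 12 named miRNAs of the cluster were in the table. Of these 11, 9 rose over the course and 0 fell at a limma adjusted p below 0.05, where 12.5% and 10.6% of all transcripts tested did. The 3 of highest mean were Mir743b, Mir878 and Mir741. Mir743b was at 672488 FPKM in iPSC, 23479 in ESC and 9323 on day 8, and was listed at 0 in MEF. Mir878 was at 445951 FPKM in iPSC, 35183 in ESC, 15048 on day 8 and 53.5 in MEF. Mir741 was at 267321 FPKM in iPSC, 21144 in ESC, 7157 on day 8 and 69.8 in MEF. All 9 of the near miRNAs were higher in iPSC than in ESC, by 12.1-fold for Mir880 to 59.9-fold for Mir742, and Mir742 rests on 116 FPKM in ESC.

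Mir201 and Mir547, at the far end of the cluster and named after their values were seen, peaked at day 4. Mir201 was listed at 0 in MEF, had 2031 FPKM at day 2, 2815 at day 4 and 144 at day 8, and was at 267 FPKM in iPSC and 55.6 FPKM in ESC. Mir547 had 107 FPKM in MEF, 950 at day 4 and 90.5 at day 8, and was listed at 0 in iPSC and ESC. Their slopes over the course were 0.02 ± 0.31 and -0.28 ± 0.24, with limma adjusted p = 0.987 and 0.471. At day 4 Mir470 had reached 3906 of its 170927 FPKM of day 8.

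Among the listed miRNAs known from testis that lie outside the cluster, mainly miR-34 and miR-449 genes, most fell over the course. Of 6 in the table, 5 were tested, and 4 of the 5, Mir34b, Mir34c, Mir449a and Mir449c, fell with a limma adjusted p between 0.000721 and 0.00224, while 0 rose. The other tested, Mir202, had a slope of -0.36 with limma adjusted p = 0.318. The count thus covers miR-34 and miR-449 genes and not testis miRNAs in general. Over all transcripts tested 10.6% fell and 12.5% rose. Mir34c, which p53 induces and which is abundant in male germ cells, had 738053 FPKM in MEF, 230311 at day 4 and 58819 at day 8. The summed level of the 6 was 62040 FPKM on day 8 and 797443 FPKM in MEF. In iPSC it was 631681 FPKM, against 135626 FPKM in ESC. Between the lines Mir34b was 6.38-fold and Mir34c 4.67-fold higher in iPSC, while the ratio was 0.952 for Mir449a and 0.970 for Mir449c. Mir449b had 0 in 10 of 11 libraries.

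**Figure D4:**
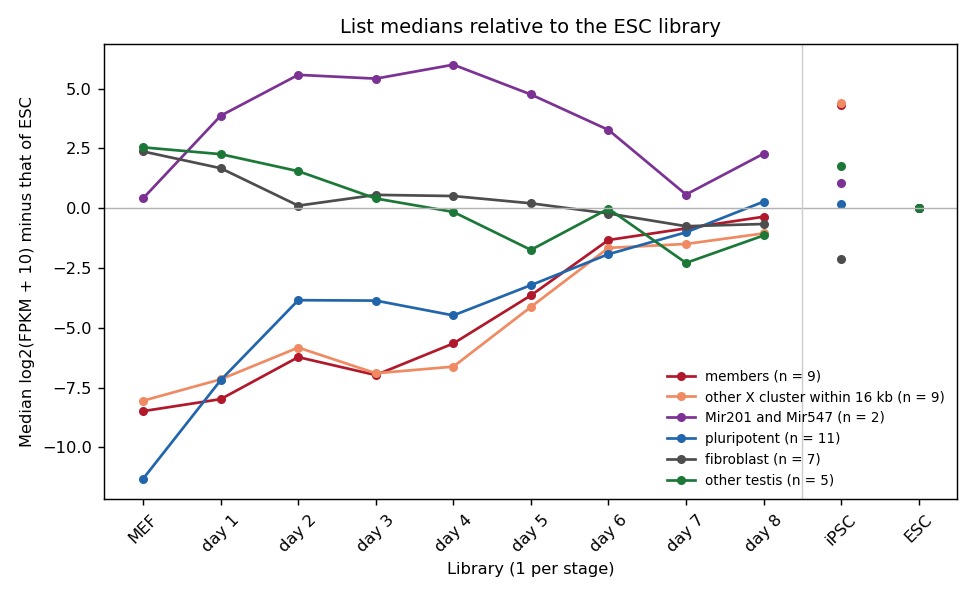
Median of log2(FPKM + 10) of each list, as the difference from the ESC library, by stage, with Mir295 and Mir143 left out of the pluripotent and fibroblast lists because of values listed at 0. The median of the 9 genes stood at -8.49 in MEF, -5.66 on day 4, -0.35 on day 8 and 4.30 in iPSC, while that of 11 pluripotency miRNAs was already at -3.85 on day 2 and at 0.17 in iPSC.

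The pluripotency miRNAs give a comparison of timing. Relative to ESC, the median of 11 of them was -11.32 in MEF, -3.85 on day 2, -4.48 on day 4 and 0.28 on day 8. That of the 9 genes was -8.49 in MEF, -6.23 on day 2, -5.66 on day 4 and -0.35 on day 8. At least 4-fold higher on day 4 than in MEF were 4 of the 9 genes and 12 of 12 pluripotency miRNAs, where 32.8% of all transcripts tested were. At least 4-fold higher on day 8 than on day 4 were 9 of 9 and 6 of 12, where 13.6% were. Of the 4 genes counted on day 4, all but Mir470 were listed at 0 in MEF and had 4 to 7 reads on day 4. Of the 12 pluripotency miRNAs, 5 were listed at 0 in MEF. The difference in timing was not tested.

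The table also held miRNAs of the X chromosome outside the cluster. The 52 tested had a median difference between iPSC and ESC of 0.19, in a range of -5.22 to 7.06 that reaches beyond the 9 genes. At least 4-fold higher in iPSC were 7 of the 52 and at least 4-fold lower 3, where 10.9% and 7.12% of all transcripts tested were. Between day 8 and MEF their median difference was -1.89, with 8 of 52 at least 4-fold higher and 24 at least 4-fold lower. Of all 1419 transcripts tested, 535 were at least 4-fold higher and 241 at least 4-fold lower.

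The likeness of other profiles was measured as Pearson's r with the mean of the 9 standardised profiles over the 11 libraries, which share depth and culture within a library. The 5 nearest transcripts outside the 9 genes were Mir878 with r = 0.98, Mir880 with 0.98, Mir741 with 0.98, Mir881 with 0.98 and Mir883b with 0.97, all of the same cluster. With Spearman's rho in its place, 2 of the 5 nearest lay in the cluster. The highest outside the cluster, named after its value was seen, was Mir211 on chromosome 7 with r = 0.96. Mir211 had 3290 FPKM in MEF, 29301 at day 4, 280860 at day 6 and 156224 at day 8, and 1180320 FPKM in iPSC and 135398 FPKM in ESC, a ratio of 8.72 between the lines.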

How the data were processed

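Small RNA libraries (TruSeq kit, gel-selected fragments, per the labels' protocols) gave 1 deposited table of FPKM, computed by the authors, with 3859 genes and 11 libraries. CASAVA 1.8.2, Bowtie2 2, Cufflinks 2.2.1 and the build mm10 appear, without roles, per the submitters' processing notes. How reads of identical loci were shared, and which annotation and filter were used, is not given in the sources used here. Positions came from GENCODE vM21 (GRCm38) by gene ID, found for 3712, and sequences from RefSeq (GRCm38.p6).

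Values were analysed as log2(FPKM + 10) over transcripts with a mean of at least 10 FPKM. The 10 FPKM added shrinks ratios between low values above 0. It is less than the worth of 1 read of these genes, 25.4 to 81.6 FPKM, so a change between 0 and 1 read counts as a large step. The highest step from MEF to day 1, 2.76, was that of Mir465 from 0 to 1 read. The worth of 1 read was taken from the steps of low values with an assumed fragment length of 200 ± 80 nt. Among 4101 low values, from 0.5 to 5.5 reads, 91.4% lay within 0.05 of a whole number. Counting intervals (95%, exact Poisson) rest on these reads and cover counting error only, since PCR copies are not independent molecules. No count test was run. Slopes came from limma 3.58.1 in R 4.3.3 with MEF placed at day 0 (two-sided, Benjamini-Hochberg over 1419 transcripts, threshold 0.05, 7 residual degrees of freedom), after a check on simulated data. Single libraries were compared by size only, at 4-fold. The rule for names took the 9 genes, the 3 most abundant of the other X cluster and testis lists and the 5 most alike; other transcripts were named after their values were seen. The members and lists were chosen with earlier results of these data known.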

Additional observations from a re-analysis of the deposited data

How the results depend on the processing

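No paired analysis was possible because each stage had 1 library. All 9 genes kept a rising slope called at an adjusted p below 0.05 in each of the 9 fits that left out 1 library, with the other pseudocounts, filters and scalings, and within days 3 to 8. Without days 7 and 8, the calls of Mir465c-2 and Mir471 were lost (limma adjusted p = 0.0801 and 0.0961). Of the other miRNAs of the X cluster, 5 rose without days 7 and 8, and 1 fell within days 3 to 8 and without MEF (leaving out 1 library gave 0 to 1 falling). Over all transcripts tested, 311 rose and 114 fell after scaling to the summed miRNA FPKM, in place of 177 and 150. With miRNA genes only 111 rose, and within days 3 to 8 66 rose and 80 fell. Without days 7 and 8 69 fell. Leaving out 1 library gave 93 to 175 rising, lowest without MEF (93), day 1 (110) and day 6 (114), and 97 to 170 falling, lowest without day 7 (97) and day 8 (98). The count of genes at least 4-fold lower on day 8 than in the lines was 8, but 0 with ESC alone (Mir465b-1 0.0267 and Mir471 0.2316, both higher on day 8) and 2 with miRNA scaling. All 9 genes were at least 4-fold higher in iPSC than in ESC at pseudocounts of 1 and 100 and under both scalings, alternatives chosen after seeing the data, as was day 8 against ESC, which gave 0. With Spearman's rho, 2 of the 5 most alike lay in the cluster. Also added after seeing the data, miRNA scaling turned the difference between ESC and day 8 in 5 genes and raised the median step to day 7 to 1.48, as the report gives. The causes were not tested. In MEF 1 read of Mir465 was worth 62.0 FPKM, so low levels there rest on single reads.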
